A study of Mus musculus with 3 samples.

Results

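The genes described here are 10 transcription factors that hold the identity of hair follicle stem cells: Sox9, Lhx2, Nfatc1, Tbx1, Foxc1, Foxp1, Nfib, Nfix, Runx1 and Gata6. They were taken by symbol from a table of 44625 gene entries, and all 10 were found in it. The RNA came from 3 libraries of polyadenylated RNA from back skin cells of wild-type (WT) mice aged 56 days, when the follicles are in the second telogen, the resting phase of the hair cycle. Cells that carried integrin alpha6 and lacked Sca1 were collected by flow cytometry, and the 3 libraries form 1 group with no treatment and no second genotype. The labels call the collections biological duplicates although there are 3 libraries, so each SD measures the spread between these libraries, which may be partly technical. The labels name an antibody to integrin alpha6 only, and do not say how many mice gave the cells of each library.

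Hair follicle stem cells lie in the bulge, below the sebaceous gland, and stay quiescent through most of telogen. A small set of transcription factors keeps them in this state. Sox9 and Lhx2 specify and maintain the stem cell compartment, Nfatc1, Foxc1 and Foxp1 restrain division, the nuclear factor I proteins Nfib and Nfix keep stem cell enhancers open, Tbx1 sustains self-renewal, and Runx1 favours the step into growth. Gata6 is better known from the upper follicle and the sebaceous duct. H3K27me3 is a histone mark laid down by Polycomb repressive complex proteins, most often over CpG-rich promoters of developmental genes that are switched off.

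Sequencing depth was 29283936 counts in replicate 1, 35264901 in replicate 2 and 39198620 in replicate 3. Replicate 1 stood apart: Pearson's r of log2(TPM + 1) over 13663 genes averaging 1 TPM or more was 0.923 and 0.907 against replicates 2 and 3, and 0.970 between the latter. TPM corrects each count for the length of its gene and gives every library the same sum. The label of the cells was checked against markers. The 6 hair follicle stem cell markers had a median of 1083 TPM, with Krt15 at 23208 and Cd34 at 535 TPM. They summed to 26347, 32464 and 31127 TPM in replicates 1, 2 and 3. The 5 basal keratinocyte markers summed to 19693, 28990 and 25677 TPM, with Krt5 at 17900 and Krt14 at 6136 TPM. Of the 3 hair germ markers, Cdh3 had 116, Lgr5, which is also a stem cell marker, 90.1 and Gli1 78.1 TPM. Levels in 1 group do not tell these cell types apart. The 8 markers of upper follicle and sebaceous duct all had at least 1 TPM, and their summed level was 4792, 4300 and 3267 TPM in replicates 1, 2 and 3. Suprabasal genes, which mark differentiating cells, were present, at a sum of 1648, 3144 and 5017 TPM. Sebocyte genes summed to between 178 and 273 TPM and melanocyte genes to between 13.3 and 15.7 TPM. Markers of dermal, vascular and immune cells were low: the summed level of 6 endothelial genes lay between 0.786 and 0.928 TPM, with Cdh5, Cldn5 and Emcn at 0 counts, and that of 8 fibroblast and dermal papilla genes between 18.0 and 45.3 TPM, nearly all of it from Col1a1 at 17.4 and Col1a2 at 16.6 TPM, with Lum and Dpt at 0 counts. The 8 immune genes summed to between 33.3 and 37.5 TPM, most of it from Cd68 and Cd74, while Ptprc, the pan-leukocyte gene, had 0, 0 and 5 counts. In bulk samples of this kind, fewer cells of a type and less RNA per cell cannot be told apart.

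The start regions of 4 of the factors are shown because the H3K27me3 values described further on separate them: Tbx1, Lhx2 and Foxc1 had a deposited value of 0 and Runx1 did not. RefSeq start regions on GRCm38.p6 matched 6 of the 10 factors (Lhx2, Foxp1, Nfix, Foxc1, Tbx1 and Runx1). Each line holds the bases before an annotated start, 5′ to 3′ on the gene's strand, up to 250 bases and stopping before any exon annotated in GENCODE M21. Capitals mark CpG, a C followed by a G.
Tbx1 (chr16:18590672-18590921, minus strand): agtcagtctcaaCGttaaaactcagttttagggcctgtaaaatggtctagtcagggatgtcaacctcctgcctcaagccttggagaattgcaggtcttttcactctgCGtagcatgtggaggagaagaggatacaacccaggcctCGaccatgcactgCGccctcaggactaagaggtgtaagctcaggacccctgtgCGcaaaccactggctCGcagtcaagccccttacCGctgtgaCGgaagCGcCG
Lhx2 (chr2:38339031-38339280, plus strand): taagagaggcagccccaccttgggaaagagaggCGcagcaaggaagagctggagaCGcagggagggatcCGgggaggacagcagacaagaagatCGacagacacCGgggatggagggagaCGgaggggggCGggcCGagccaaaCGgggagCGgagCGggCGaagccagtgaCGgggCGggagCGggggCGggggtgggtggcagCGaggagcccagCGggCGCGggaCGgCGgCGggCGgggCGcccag
Foxc1 (chr13:31806396-31806632, plus strand): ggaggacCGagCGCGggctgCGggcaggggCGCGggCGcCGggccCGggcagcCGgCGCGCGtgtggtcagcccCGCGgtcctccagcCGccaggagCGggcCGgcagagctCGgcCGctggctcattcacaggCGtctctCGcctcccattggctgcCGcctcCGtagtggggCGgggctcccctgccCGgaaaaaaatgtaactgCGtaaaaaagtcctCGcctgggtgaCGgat
Runx1, distal start (chr16:92826150-92826324, minus strand): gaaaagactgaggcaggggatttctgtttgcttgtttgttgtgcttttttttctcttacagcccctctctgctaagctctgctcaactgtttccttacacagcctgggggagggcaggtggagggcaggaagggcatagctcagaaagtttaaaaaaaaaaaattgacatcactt
Runx1, proximal start (chr16:92697330-92697579, minus strand): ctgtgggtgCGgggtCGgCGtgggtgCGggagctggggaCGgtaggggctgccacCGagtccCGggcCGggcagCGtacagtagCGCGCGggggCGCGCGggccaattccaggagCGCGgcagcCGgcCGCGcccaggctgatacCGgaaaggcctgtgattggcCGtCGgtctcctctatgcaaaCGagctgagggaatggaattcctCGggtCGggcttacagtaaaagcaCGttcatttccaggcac

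Over the 250 bases before the start, Foxc1 held 29 CpG, Lhx2 25 and Tbx1 10, against a median of 6 over 32851 RefSeq start regions of the same length. A second annotated start of Tbx1 had 17 CpG, and a second one of Lhx2 had 24 and a match of the NFAT motif given below. The starts of Runx1 differed from each other. The distal start had 2 CpG in its 250 bases (0 in the 175 bases printed) and the proximal start had 27. Foxp1, with 3 annotated starts, had 11, 3 and 34 CpG, and Nfix, with 4, had 11, 4, 7 and 1. The counts per gene do not say which start was used. A search for 8 short motifs of the factors' own families on both strands gave few matches in these 5 windows. The Runx motif TGTGGT, present in 14.0% of all start regions, was found in Foxc1 at 183 bases before the start. The T-box motif AGGTGT, present in 11.8%, was found in Tbx1 at 71 bases before its start, and the NFAT motif GGAAAA, present in 20.4%, in Foxc1. The nuclear factor I motif TTGGCA, present in 12.3%, was found before the distal start of Runx1, in the exon part that is not printed. The forkhead motif TGTTTAC is in 3.17% of all start regions, the Gata motif AGATAA is in 9.99%, the LIM homeodomain motif TAATTA is in 4.84% and the Sox motif AACAAT is in 9.42%, and none of these had a match in the 5 windows. Overlap of one motif with another was allowed. A match describes letters in this window and is not a binding site.

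All 10 factors were transcribed in every library. Each had a TPM of at least 1 in all 3 libraries, as had 12048 of 44548 genes, and 9 of 10 had at least 10 TPM in all 3, which held for 16.1% of genes. At a limit of 100 TPM, Tbx1, Lhx2, Nfix and Sox9 passed in all 3 libraries, against 2.31% of all genes. Mean levels ran from 532 TPM for Tbx1 to 9.61 TPM for Gata6, and the median of the 10 means was 107 TPM, against 14.4 TPM over the 13663 genes averaging 1 TPM or more. Among these, Tbx1 lay at the percentile of 98.4, Sox9 at 94.8, Runx1 at 60.7 and Gata6 at 39.3.

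**Figure D1:**
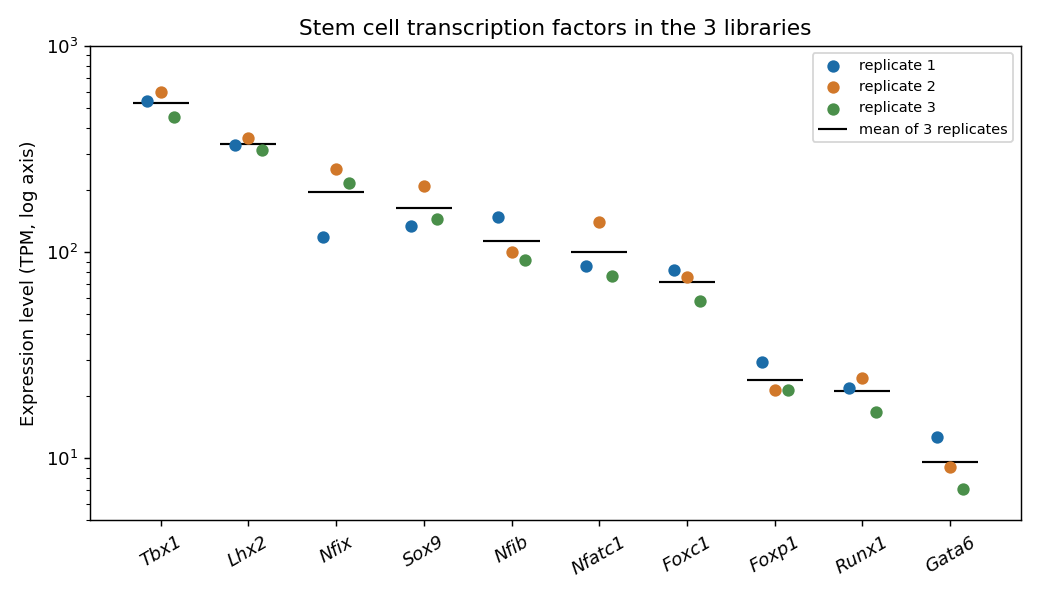
Expression level in TPM (log axis) of the 10 factors in each of the 3 libraries, ordered by mean; points are replicates 1 to 3 and the line is their mean. Tbx1 and Lhx2 lie above all others in every library, Gata6 lies below all others, and Nfix is spread widest, from 119 TPM in replicate 1 to 252 TPM in replicate 2.

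Tbx1, Lhx2 and Sox9 are the factors tied to the making and renewal of the stem cell pool. Tbx1 (ENSMUSG00000009097, GRCm38 chromosome 16, 18580979 to 18590671, minus strand), a T-box factor that dampens BMP signalling in these cells, had 543, 598 and 454 TPM in replicates 1, 2 and 3, from 10400, 14547 and 12436 counts. It was the highest of the 10 in every library, with a mean of 532 ± 72.7 TPM (SD, n = 3). Lhx2 (ENSMUSG00000000247, chromosome 2, 38339281 to 38369733, plus strand), a LIM homeodomain factor, had 330, 356 and 314 TPM. It was second in every library and the steadiest of the 10, at 333 ± 21.6 TPM (SD, n = 3). The TPM values of these genes did not overlap, and Tbx1 stood 1.65, 1.68 and 1.45 times above Lhx2 in the 3 libraries. Sox9 (ENSMUSG00000000567, chromosome 11, 112782224 to 112787760, plus strand), an HMG-box factor, had 134, 210 and 146 TPM. Replicate 2 was the high one, and the mean was 163 ± 41.0 TPM (SD, n = 3), the fourth in each library.

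Nfatc1, Foxc1 and Foxp1 are known as brakes on stem cell division. Nfatc1 (ENSMUSG00000033016, chromosome 18, 80606205 to 80713071, minus strand), the calcineurin-controlled factor that holds bulge cells quiescent, had 85.4, 140 and 76.3 TPM. As for Sox9, replicate 2 was high and the others were close to each other, and the mean was 100 ± 34.2 TPM (SD, n = 3). Its level over that of Sox9 was 0.640, 0.666 and 0.524 in the 3 libraries. Foxc1 (ENSMUSG00000050295, chromosome 13, 31806633 to 31812476, plus strand), a forkhead factor that helps to return stem cells to rest, had 81.6, 76.0 and 58.2 TPM. Replicate 3 was the low one, and the mean was 71.9 ± 12.2 TPM (SD, n = 3). Foxp1 (ENSMUSG00000030067, chromosome 6, 98925338 to 99522721, minus strand), a forkhead repressor tied to Fgf18 and quiescence, had 29.2, 21.4 and 21.5 TPM. Replicate 1 was the high one here, and the mean was 24.0 ± 4.49 TPM (SD, n = 3).

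Nfix and Nfib, the nuclear factor I pair, changed places between libraries. Nfix (ENSMUSG00000001911, chromosome 8, 84699876 to 84800344, minus strand) had 119, 252 and 216 TPM, from 9423, 25402 and 24510 counts. Replicate 1 stood far below the others, and the mean was 196 ± 69.0 TPM (SD, n = 3). Nfib (ENSMUSG00000008575, chromosome 4, 82290173 to 82705750, minus strand) had 149, 100 and 91.8 TPM, from 23967, 20514 and 21185 counts. Replicate 1 was the high one for Nfib, and the mean was 114 ± 30.7 TPM (SD, n = 3). The level of Nfib over that of Nfix was therefore 1.25 in replicate 1, 0.397 in replicate 2 and 0.425 in replicate 3. The other members of the family followed one or the other: Nfic over Nfix was 0.316 ± 0.0159 (SD, n = 3), and Nfia over Nfib was 0.0520 ± 0.00196. Within the family, Nfix and Nfic were low together in replicate 1 while Nfib and Nfia were high together.

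**Figure D2:**
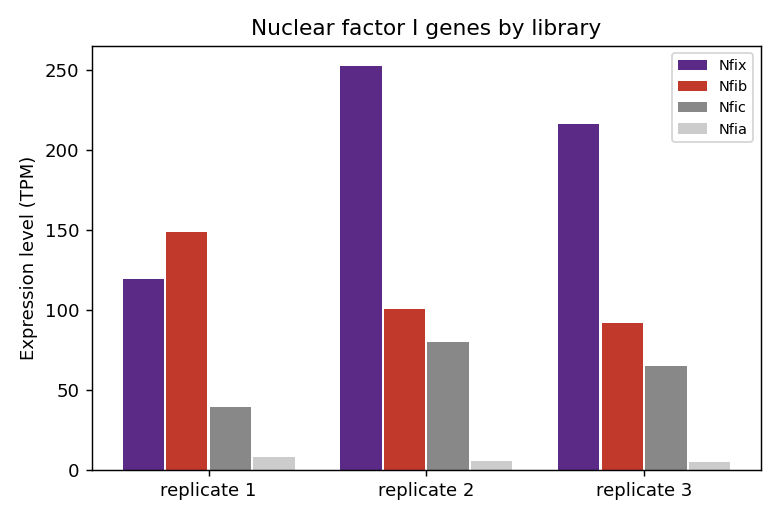
Expression level in TPM of the 4 nuclear factor I genes in replicates 1, 2 and 3 (bars, one per gene and library, from 0). In replicate 1 Nfib (149 TPM) is above Nfix (119 TPM), and in replicates 2 and 3 Nfix is above Nfib.

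These pairs also differ in gene length and base composition, and replicate 1 differed from the others along both. Nfib and Nfia have deposited lengths of 14957 and 10891 bases and a GC content of 43.3% and 42.7%, and Nfix and Nfic have 7351 and 6534 bases and 57.1% and 57.4%. Among 1459 genes averaging 10 TPM or more with a GC content from 40 to 45%, the median log2(TPM + 1) of replicate 1 lay 0.38 above the mean of the others, and among 1692 genes from 55 to 60% it lay at -0.02. For Nfib the difference was 0.63, where a trend fitted over 8153 genes on length and GC content gave 0.64. For Nfix it was -0.97, where the trend gave 0.09. Nfix thus lay 1.05 below the trend and Nfib on it. The trend was fitted after the data were seen, and the part of length and composition in these differences was not tested.

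Runx1 and Gata6 were the lowest of the 10. Runx1 (ENSMUSG00000022952, chromosome 16, 92601466 to 92826149, minus strand), a runt-domain factor that works with Cbfb, had 21.9, 24.6 and 16.8 TPM. Replicate 3 was the low one, and the mean was 21.1 ± 3.98 TPM (SD, n = 3). Runx1 is also a factor of blood cells, and of the immune markers Cd68, at 21.3 TPM, was as high as Runx1 while Ptprc had at most 5 counts. The part of such cells in the level of Runx1 was not tested. Gata6 (ENSMUSG00000005836, chromosome 18, 11052064 to 11085635, plus strand), a zinc finger factor, had 12.7, 9.10 and 7.06 TPM from 436, 398 and 348 counts. It was the lowest in every library, at 9.61 ± 2.83 TPM (SD, n = 3), and fell on both sides of 10 TPM. The summed level of the upper follicle and sebaceous duct markers was also highest in replicate 1 and lowest in replicate 3, and its part in the level of Gata6 was not tested.

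The order of the 10 was in part firm. Of 45 pairs of factors, 40 had the same order in all 3 libraries and 37 had ranges that did not overlap. Of the 9 pairs of neighbours in the order of means, 4 had ranges apart: Tbx1 over Lhx2, Lhx2 over Nfix, Foxc1 over Foxp1 and Runx1 over Gata6. The neighbours Nfix and Sox9, Sox9 and Nfib, Nfib and Nfatc1, and Foxp1 and Runx1 changed order between libraries and did not differ beyond their spread. Nfatc1 and Foxc1 had overlapping ranges, but Nfatc1 was higher in 3 of 3 libraries, with a mean log2 ratio of 0.45 ± 0.41 (SD, n = 3). Foxc1 over Foxp1 was the widest step, with a mean log2 ratio of 1.58 ± 0.21 (SD, n = 3). Without replicate 1, 7 of the 9 neighbours had ranges apart, and Nfatc1 moved above Nfib. Ranges over fewer libraries cannot be wider, so this higher count does not make the order firmer. With 3 libraries a two-sided exact sign-flip test cannot go below 0.25, so no p is given for any pair.

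The SD over replicates was between 6.49% of the mean for Lhx2 and 35.2% for Nfix. Counting error makes up at most 5.36% for Gata6 and at most 1.89% for the others. In log2(TPM + 1) units, where the added 1 shrinks differences of weakly transcribed genes, the 6 factors with a mean from 100 to 1000 TPM had a median SD of 0.36, against 0.17 over 1085 genes of that level. The 3 factors from 10 to 100 TPM had 0.25, against 0.23 over 6940 genes. In edgeR's biological coefficient of variation, which shrinks each gene towards genes of its level, 7 of 10 factors lay below that level's value, such as Tbx1 with 0.212 against 0.236, and Nfix, with 0.330 against 0.238, lay furthest above. With TMM factors, an alternative chosen after seeing the data, the median SD of the 10 was 0.24, where it was 0.31 as deposited. Of the 10, 4 were highest in replicate 1 (Nfib, Foxc1, Foxp1 and Gata6), 6 in replicate 2 and 0 in replicate 3. Of all genes averaging 1 TPM or more, replicate 1 gave the highest value for 59.6%, replicate 2 for 20.0% and replicate 3 for 20.4%. Replicate 1 was also the library with the highest level of the 7 dissociation response genes, whose sum was 20233, 12042 and 8792 TPM, and the lowest level of the 5 suprabasal genes, and the part of either in these differences was not tested.

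Each factor was next set beside its relatives, 57 genes of 8 families, to see which paralogs the cells transcribe. Foxc1 had no relative to be compared with, since Foxc2 was not analysed here. Lhx2 was alone: it took 99.98% ± 0.0173 of the summed TPM of 8 Lhx genes (SD, n = 3), and the 7 others had between 0 and 5 counts per library. Tbx1 took 96.1% ± 1.58 of the 17 T-box genes, with Mga, which pairs a T-box with a second DNA-binding domain, next at 14.2 TPM. By counts, with no division by length, Tbx1 took 79.6%. Runx1 took 94.9% ± 0.509 of the Runx genes, with Runx2 next at 0.970 TPM. Sox9 took 73.6% ± 4.48 of 19 Sox genes, ahead of Sox21 at 14.5 and Sox13 at 11.6 TPM. In these families 1 gene held most of the transcripts.

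In the other families the relatives took larger shares. Nfatc1 took 58.8% ± 11.3 of the NFAT genes (SD, n = 3), with Nfat5, the calcineurin-independent member, at 42.8 and Nfatc3 at 15.4 TPM. By counts, with no division by length, Nfatc1 took 42.4%. Nfat5 had 59.97, 35.2 and 33.4 TPM and was, unlike Nfatc1, high in replicate 1. Foxp4 had 36.8, 49.3 and 39.8 TPM and lay above Foxp1 in all 3 libraries, so that Foxp1 took 36.5% ± 7.08 of the Foxp genes. By counts Foxp1, the longer gene, took 61.2%. Gata6 took 15.4% ± 2.12 of the Gata genes, since Gata3, a factor of the inner root sheath lineage and of skin barrier formation, had 59.1, 50.5 and 45.8 TPM. Nfix and Nfib took 50.9% ± 11.4 and 31.5% ± 13.7 of the nuclear factor I genes. By counts the order turned, with Nfib at 47.6% and Nfix at 39.6%.

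The deposited H3K27me3 value was 0 for most of the factors and above 0 for most relatives under 1 TPM, called silent here. Its unit and source cells were not stated. Of 44548 genes 8.06% had a value above 0, and of 9650 protein-coding genes with a mean TPM under 1 it was 20.6%. Of the 38 relatives with a mean TPM under 1, 30 had a value above 0, with a median of 27844 among them, where the median over all genes above 0 was 7605. All 7 silent Lhx genes had one, from 19071 for Lhx3 to 37593 for Lhx5, as had 10 of 12 silent T-box genes, up to 50565 for Tbx18, and 8 of 10 silent Sox genes, up to 40763 for Sox2. Gata4 had 51721, and its 0 counts in every library allow up to 0.0713 TPM. The exceptions, under 1 TPM with a value of 0, were Sox5, Sox30, Tbx10, Tbx22, Foxp3, Runx2, Runx3 and Gata1. Among them Runx2, with 104, 132 and 99 counts, and Sox5, with 74, 77 and 131, were transcribed at a low level.

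Of the 10 factors, 7 had an H3K27me3 value of 0: Tbx1, Lhx2, Nfix, Sox9, Nfatc1, Foxc1 and Foxp1. The other 3 were Nfib with 2837, Runx1 with 5937 and Gata6 with 20585. Among protein-coding genes averaging 1 TPM or more, 3.52% had a value above 0. Gata6 shared its value with 1010001N08Rik, a non-coding gene on the opposite strand that had 2, 0 and 0 counts, and it lay at the percentile of 79.2 among genes with a value above 0. Runx1 lay at 39.5 and Nfib at 13.9, and no other gene shared their values. Of the 19 relatives averaging 1 TPM or more, 6 (31.6%) also had a value above 0, a share close to that of the factors. Gata3 had 24043 at a mean of 51.8 TPM. Sox21 had 19072 at 14.5 TPM, and Tbx3 had 61675, the highest of all 67 genes, at 2.84 TPM. Whether the mark and the transcripts came from the same cells was not tested.

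**Figure D3:**
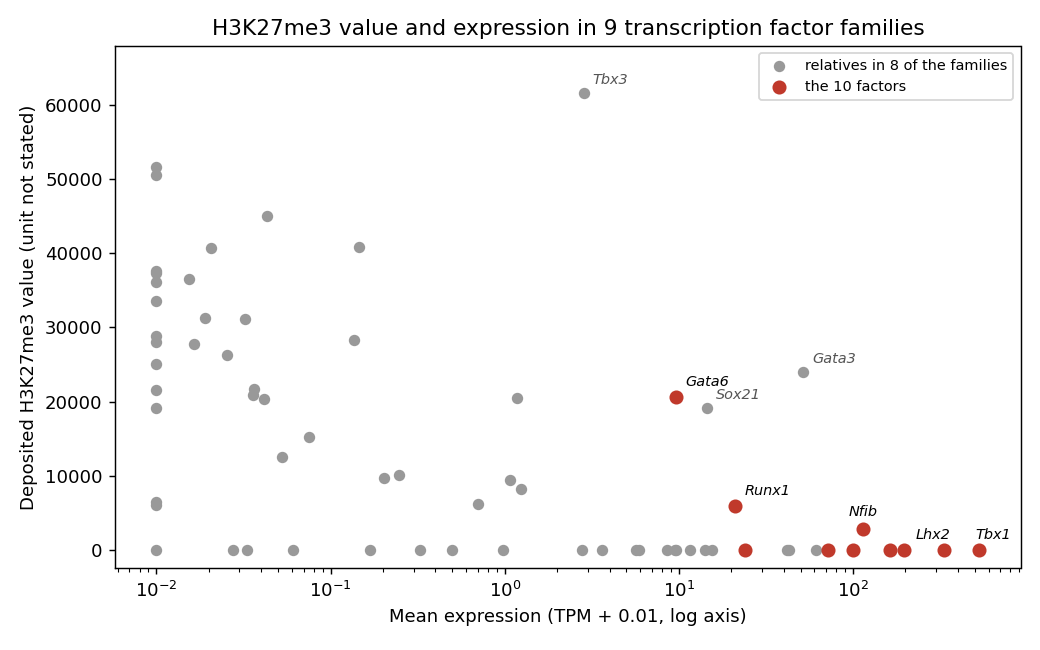
Deposited H3K27me3 value per gene (unit not stated) against mean TPM on a log axis, with a small constant added so that genes at 0 can be drawn, for the 10 factors (red) and their 57 relatives (grey). Of the red points 7 lie at a value of 0, while 30 of the 38 relatives under 1 TPM have a value above 0.

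The authors' deposited table also holds a log2 fold change and an adjusted p-value per gene. The other side of that comparison, by the names of unused columns, appears to be bulge cells, which are not analysed here, and a positive value means higher in the libraries described here. In the authors' deposited table, 7 of the 10 factors had an adjusted p-value under 0.05, where 55.5% of 20264 genes had one. Higher were 2 of 10 factors, Tbx1 and Gata6, where 23.6% of genes were. Also higher in the authors' deposited table were 7 of the 8 upper follicle and sebaceous duct markers (median log2 fold change 2.62), 5 of the 5 suprabasal genes (3.17) and 5 of the 7 dissociation response genes (1.78). Of the 6 hair follicle stem cell markers, 3 were higher and 1, Lgr5, lower (median 0.28). Of the 5 basal keratinocyte markers, 3 were higher and 1, Trp63, lower (0.57). The part of all these genes in the factors' values was not tested. Lower were 5 of 10 factors, Nfib, Runx1, Foxp1, Sox9 and Nfatc1, where 31.9% of genes were. At an adjusted p-value under 0.01 the authors' deposited table held 7 of 10 factors and 46.1% of genes, and with a log2 fold change of 1 or more in either direction at 0.05 it held 5 of 10 and 46.3%. Among the 8152 genes averaging 10 TPM or more, the shares in the authors' deposited table were 49.3% higher and 20.8% lower, against 1 and 5 of 9 factors.

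Tbx1 stood at a log2 fold change of 3.03 in the authors' deposited table (adjusted p-value 3.18e-37) and Gata6 at 1.21 (0.00230). Nfib had -2.24 in the authors' deposited table (adjusted p-value 1.09e-36), Runx1 -2.10 (1.30e-20) and Foxp1 -2.04 (1.53e-32). Sox9 and Nfatc1 lay closer together in the authors' deposited table, at -0.93 each, with adjusted p-values of 0.00171 and 0.00303. Lhx2, Foxc1 and Nfix did not pass, with log2 fold changes of 0.20, 0.29 and -0.30 and adjusted p-values of 0.482, 0.225 and 0.462 in the authors' deposited table. The authors' score is a product of the fold change, the negative log10 of its adjusted p-value and the H3K27me3 value with 1 added. Gata6 had the rank of 49 from the top among 20264 scores in the authors' deposited table, and Runx1 and Nfib had the ranks of 43 and 53 from the bottom.

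Among genes averaging 10 TPM or more, the deposited fold change ran with gene length and GC content. The 3 longest factors, Nfib with 14957, Foxp1 with 13751 and Runx1 with 11827 bases, had the 3 lowest fold changes of the 10, and Tbx1, the shortest with 1777 bases, had the highest. Over these genes, the median log2 fold change in the authors' deposited table was 1.62 for 1134 genes from 1000 to 2000 bases, 0.91 for 2784 genes from 2000 to 4000, and 0.14 for 2787 genes from 4000 to 8000. It was -0.63 for 702 genes from 8000 to 12000 bases and -1.39 for 249 longer genes. By GC content the median rose from -0.70 for 363 genes under 40% to 2.08 for 371 genes above 60%. Spearman's rho of the deposited fold change with length was -0.557 and with GC content 0.565, across genes that share the same libraries.

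A trend on length and GC content over 8153 genes, fitted after the data were seen, gave the value that a gene of the same length and composition had on average. Relative to it, 9 of 10 factors lay lower. The genes of the fit average 10 TPM or more in the libraries described here, a cut on 1 side of the comparison. Their median deposited log2 fold change was 0.61, against -0.41 over all 24885 genes with a value. A trend over all genes was not fitted, and the share of genes below this one was not counted. Tbx1 lay 0.35 higher, where its deposited log2 fold change was 3.03, and Nfib and Foxp1 lay at -0.34 and -0.45, where the deposited values were -2.24 and -2.04. Gata6 changed sign, from 1.21 to -0.18, but at a mean of 9.61 TPM it was not among the genes of the fit. Its change of sign thus rests on a cut in level that it does not meet. Runx1 lay at -0.90, from a deposited -2.10. The factors of medium length lay lower than such genes: Sox9 at -1.43, Lhx2 at -1.19, Nfatc1 at -1.16, Foxc1 at -0.95 and Nfix at -0.90. These differences have no test, and the part of length and composition in the deposited fold change was not tested.

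**Figure D4:**
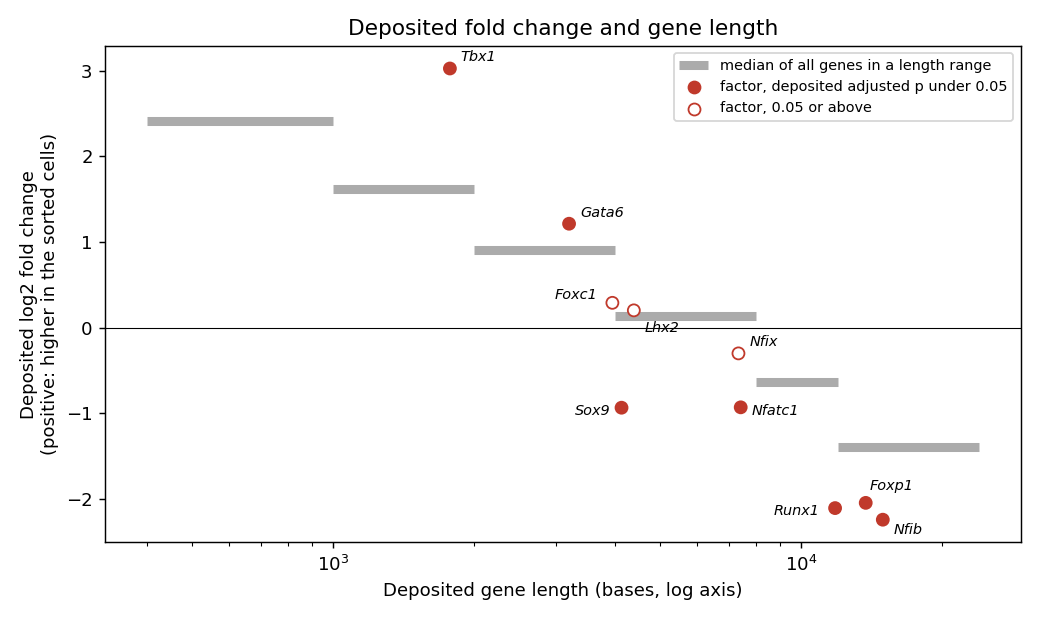
Deposited log2 fold change of the 10 factors (points, filled where the deposited adjusted p-value was under 0.05) against deposited gene length on a log axis, with the median of all genes averaging 10 TPM or more in each length range (grey bars). The bars fall from 2.41 for genes up to 1000 bases to -1.39 for genes over 12000 bases, and Sox9 and Nfatc1, both at -0.93, lie below the bar of 0.14 of their length range.

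Partners through which the factors act were read from a list of 19 genes, of which 18 were in the table. Of these, 16 had a mean of at least 10 TPM. Ldb1, the bridging cofactor of LIM homeodomain proteins such as Lhx2, was highest with 333, 178 and 143 TPM, and replicate 1 was the high one, unlike for Lhx2. Rcan1, an inhibitor of calcineurin that is itself induced by NFAT, had 78.7, 112 and 146 TPM. Lmo4 had 98.0 ± 12.5 TPM (SD, n = 3) and Cbfb, the partner of Runx1, 68.3 ± 6.64 TPM. The calcineurin subunits Ppp3r1 and Ppp3ca had 49.5 and 33.7 TPM. Rcan2 had no count, which allows up to 0.0743 TPM, and its deposited H3K27me3 value was 15707. Of 17 partners, 3 were higher and 9 lower in the authors' deposited table at an adjusted p-value under 0.05, with Rcan1 at 0.71, Crebbp at -2.89, Gsk3b at -2.46, Ep300 at -2.28, Ldb1 at 2.23, Lmo4 at 1.39 and Tle4 at -1.15. The shares given above were 23.6% higher and 31.9% lower over all genes, and 49.3% and 20.8% over genes averaging 10 TPM or more.

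Genes placed downstream of the factors by earlier work on skin formed a list of 26 that holds Sox9 and Lhx2 themselves, all in the table, 24 of them with at least 10 TPM. Bulge genes were the highest, with Krt15 at 23208, Col17a1 at 3979 and Cd34 at 535 TPM. Inhibitors of cyclin-dependent kinases were present beside a kinase that drives division: Cdkn1a had 185 ± 10.3 TPM (SD, n = 3), Cdkn1b 69.1 ± 16.3, Cdkn1c 11.3 ± 0.943, and Cdk4, which Nfatc1 represses, 137 ± 6.48. Fgf18, tied to Foxp1, had 37.4, 79.1 and 42.7 TPM, and like Nfatc1 and Sox9 it was high in replicate 2. Id1, Fst and Socs3 had 494, 399 and 323 TPM. Inhba was lowest, with 2, 0 and 15 counts. Of the 26, 10 were higher and 8 lower in the authors' deposited table at an adjusted p-value under 0.05, and the largest among them were Socs3 at 3.51, Id1 at 3.33, Bmpr2 at -3.01, Wnt7b at 2.77, Inhba at -2.62, Prlr at -2.57 and Bmp4 at -2.36. The shares over all genes were 23.6% higher and 31.9% lower. Over genes of 10 TPM or more, to which 24 of the 26 belong, they were 49.3% and 20.8%.

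Another 30 transcription factors of the follicle gave the range in which the 10 lie. Of these, 25 had a mean of at least 10 TPM and 9 at least 100, with a median of 42.7 TPM, against 107 TPM for the 10. Klf4, a factor of epidermal differentiation, had 1946, 963 and 797 TPM and was high in replicate 1. Id3, Id1 and Id2, targets of BMP signalling, had 700.0, 494 and 483 TPM, and Hopx, Vdr, Barx2, Trp63 and Ets2 had 336, 291, 282, 273 and 127 TPM. Zeb1 was lowest at 0.0378 TPM. Of the 30, 13 were higher and 6 lower in the authors' deposited table, with a median log2 fold change of 0.44, where the median of the 10 was -0.61. That of all 20264 genes was -0.36, but it was 0.26 for genes averaging 1 TPM or more and 0.61 at 10 TPM or more. Among all genes 23.6% were higher and 31.9% lower, and at 10 TPM or more 49.3% and 20.8%. The largest of those not yet named were Tcf7l2 at -2.82, Ovol1 at 2.56, Sox4 at 2.20, Hes1 at 2.16 and Gli1 at 2.12 in the authors' deposited table.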

How the data were processed

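The deposited table gives, per the file headers, raw counts and TPM of every gene in each of the 3 libraries. The counts are whole numbers, and the TPM values were computed by the authors. TPM recomputed from counts and the deposited length differed from the deposited TPM by at most 4.69e-06. The authors' deposited table also holds a log2 fold change, an adjusted p-value, a score and an H3K27me3 value per gene. Per the submitters' processing notes, TopHat2, SAMtools, FastQC, DESeq and DESeq2 were used on mm10 (GRCm38), with no versions or roles given. The counter, annotation and strand setting are not given in the sources used here. A further 6 columns of per-sample values match no sample and were not used. The direction of the fold change was read from 2555 genes with 0 counts in all 3 libraries, of which 2555 had a negative one.

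The 10 factors and all lists were chosen with earlier results of these data known. Symbols with several entries kept the entry with the highest mean TPM, which left 44548 genes. Coordinates and overlaps came from GENCODE M21 (GRCm38) by identifier, in which 44392 entries were found, and start regions from RefSeq (GRCm38.p6). GC content is that of a gene's longest GENCODE transcript. Exons of Nfix, Foxp1, Runx1 and Gata6 overlap other genes, each of them with 20 counts or fewer per library. Relatives were named at a mean of at least 10 TPM or as the highest other gene of a family, and those named for their H3K27me3 value were chosen after it was seen. Genes of the lists were named at 100 TPM or more, as the lowest, or among the 5 further with the largest deposited fold change past an adjusted p-value of 0.05, beside a few chosen after their values were seen. For likeness of level, the 2 genes nearest to a factor were taken.

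With 1 group, no contrast was fitted. The analysis used Python 3.11.15, pandas 2.3.3 and edgeR 4.0.16 (R 4.3.3), the last for TMM factors and for the biological coefficient of variation of the 3 libraries. The trend was a least-squares fit with linear and squared terms of log2 length and GC content. Both fits were tested on simulated data. Limits for a count of 0 take 3 counts and cover counting error only.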

Additional observations from a re-analysis of the deposited data

How the results depend on the processing

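The order of the 10 means was the same with upper quartile scaling, with TMM factors and with mitochondrial and short genes left out. The last of these raised every mean by 15.2 to 16.1%, and the others moved them by -1.93 to 2.26%. Each setting scales all genes of a library by 1 factor, so it cannot change the order within a library. The order does rest on the division by length. By counts Tbx1, with 10400, 14547 and 12436, lay below Lhx2, with 15615, 21444 and 21252, in every library. It also lay below Nfib, with 23967, 20514 and 21185 counts. Leaving out a replicate gave between 5 and 7 neighbouring pairs with ranges apart, where all 3 libraries gave 4, with 7 without replicate 1. A range over fewer libraries cannot be wider, so for the same order this count can only stay or rise. The rise does not show how firm the order is. At a limit of 100 TPM 4 factors passed in all libraries, where 9 passed at 10 TPM. The median percentile of the factors was 97.4 among all genes and 88.8 among genes averaging 5 TPM or more, where it was 91.7 with a limit of 1 TPM. Relative to the trend with length and GC content, chosen after seeing the data, the deposited log2 fold change of Gata6 turned from 1.21 to -0.18, and the cause was not tested. That trend was fitted on genes averaging 10 TPM or more, and Gata6, at 9.61 TPM, was not among them. The edgeR biological coefficient of variation of all genes was 0.320 and fell to 0.176 without replicate 1. No paired analysis was possible because the libraries form 1 group. Depth limits Gata6 most, with 348 to 436 counts.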

Other observations

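For each factor, the genes nearest in level over the 3 libraries were found by the Euclidean distance of log2(TPM + 1) over genes averaging 1 TPM or more. With 3 libraries this measures level more than pattern. Sox9 lay nearest to Bag3, a co-chaperone gene with 126, 192 and 145 TPM, at a distance of 0.15, and to Iffo2 at 0.19. Lhx2 lay nearest to Ctnnb1, the gene of beta-catenin, with 323, 378 and 334 TPM, at 0.13, and to Vwa2 at 0.17. Tbx1 lay nearest to Sostdc1, a secreted inhibitor of BMP and Wnt signalling, with 464, 573 and 495 TPM, at 0.27, and to Atox1 at 0.28. Nfib lay nearest to Hnrnpl and Pdhb, both at 0.13. Nfatc1 lay nearest to Plec at 0.36 and Ninj1 at 0.37, and Nfix to Arf5 at 0.31 and 9530068E07Rik at 0.32. Within a distance of 0.25 there were 0 other genes for Nfatc1, Nfix and Tbx1, 4 for Sox9, 10 for Nfib and 14 for Lhx2. The lower factors had more: 36 for Foxc1, nearest to Plekhg3 and Mrpl41, 187 for Foxp1, nearest to Ppp1r13b and Taok2, 39 for Runx1, nearest to Rnf41 and Tmem129, and 102 for Gata6, nearest to Gmeb1 and Nufip1.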
